A study of Mus musculus with 16 samples.

Results

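The HOX cluster genes were followed on 16 microarrays of mouse embryonic stem (ES) cells grown on PA6 cells, bone-marrow stroma of the mouse kept as a line, and of PA6 cells grown alone. Members were all probes whose target name was HOX, then A, B, C or D, then a number from 1 to 13, so they were selected on names and no measured value entered the rule. The set was taken up with earlier results of these data known, among them lower HOXB1 and HOXD3 with FGF2 in co-cultures. The members came to 57 of the 45281 probes and to 39 of the 30854 target names. Cluster A held 11 genes, cluster B 10, cluster C 9 and cluster D 9.

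Every culture was harvested at day 7 of growth in serum-free medium. Of the co-cultures, in which ES cells shared the dish with PA6 cells, 2 arrays had no growth factor added (-GFs), 3 had FGF2 at 20 ng/ml and 2 had BMP4 at 10 ng/ml, and PA6 cells alone had 3 arrays for each of these conditions. Per the labels the factor was present for 3 days, and the methods of the study give a lower BMP4 dose than the labels do. The ES cells were a knock-in line that carries EGFP under the tau promoter, and each kind of cell was a single line. A co-culture array read the RNA of both kinds of cell together, so fewer cells of a type and less RNA per cell cannot be told apart.

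HOX genes encode homeodomain transcription factors that set the identity of tissues along the head-to-tail axis. They lie in 4 clusters, and genes at the same place in different clusters, which carry the same paralogue number, are more alike than neighbours in the same cluster. Genes with low numbers are switched on earlier in the embryo and reach farther towards the head, up into the hindbrain, whereas genes with high numbers act in the trunk and tail. Retinoic acid, FGF and CDX factors act upstream of them, Polycomb complexes keep them silent, and PBX, MEIS and PKNOX proteins bind DNA together with their products.

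Over all probes the correlation was 0.973 to 0.986 within a group, against 0.723 to 0.797 between co-cultures and PA6 cells, and 37.3% to 47% of probes were detected per array. A probe was counted as detected where its detection p-value, the fraction of negative controls that outshone it, was under 0.05. The kinds of culture carried the markers their labels call for. Of 10 stromal genes 9 or 10 were detected on every array of each PA6 group, and in PA6 cells 4 to 6 of 8 pluripotency genes were detected on no array of a group. In all 3 kinds of co-culture the 8 pluripotency genes were detected on every array, as were 6 or 7 of the 7 neural genes tested, whereas SOX1, PAX6 and TUBB3 among 12 neural genes listed did not pass the detection filter.

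Between 12 and 23 of the 39 HOX genes were detected on an array. The lowest number was found in PA6 cells with BMP4 and the highest in co-cultures with BMP4. Detected on every array of their group were 15 HOX genes in -GFs co-cultures, 13 with FGF2 and 19 with BMP4. In PA6 cells 12 HOX genes were detected on every array of each of the 3 groups, among them HOXA2, HOXA4, HOXA5, HOXA7, HOXA13, HOXB2, HOXB3, HOXB4, HOXD4, HOXD8 and HOXD9. None of the 12 was of cluster C. Of the 3 probes of HOXA13 only the brightest was detected, at 6.66 to 8.04, and the others were undetected on all 16 arrays.

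By position, the genes detected on every array of -GFs co-cultures were 8 of the 12 with paralogue numbers 1 to 4, 6 of the 11 with numbers 5 to 8, and 1 of the 16 with numbers 9 to 13. With FGF2 the counts were 4, 6 and 3. With BMP4 they were 9, 6 and 4, and in each PA6 group they were 7, 3 and 2. HOXA13, detected through its brightest probe alone, was counted among numbers 9 to 13 in every group. The groups have 2 or 3 arrays, and a gene has to be detected on more arrays to be counted in a group of 3. HOXA6, HOXA11, HOXB8, HOXC5, HOXC8, HOXC12 and HOXD13 were detected on no array.

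**Figure D1:**
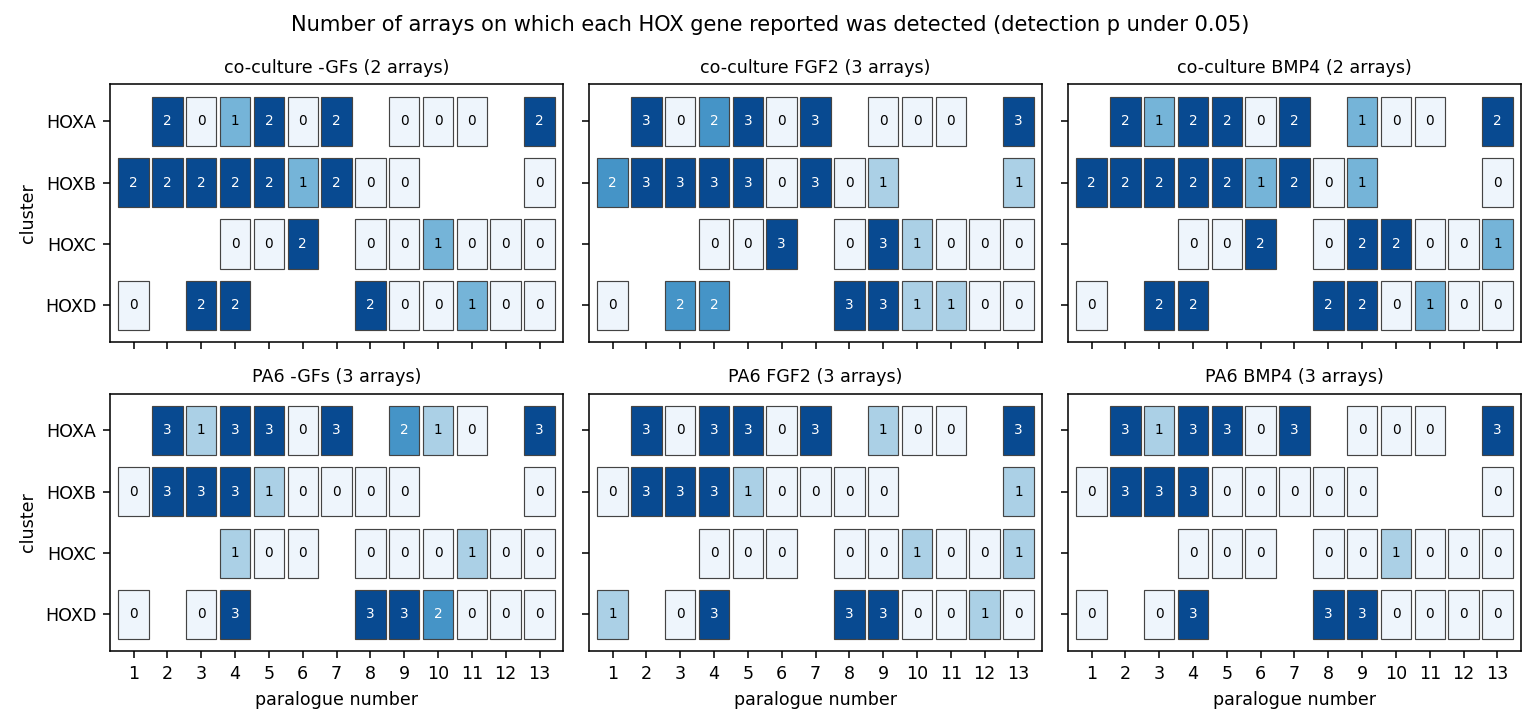
Each square is a HOX gene reported here, placed by cluster (rows) and paralogue number (columns), and each panel is a group; the number in a square counts the arrays of that group on which any probe of the gene was detected, and darker squares are detected on a larger share. HOXB1, HOXB7, HOXC6, HOXC9 and HOXD3 were detected in co-cultures and on none of the 9 PA6 arrays.

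The 19 HOX genes that some group showed as detected throughout were tested, among 14829 genes in all. They were 6 of cluster A, 6 of cluster B, 3 of cluster C and 4 of cluster D. A gene was called changed where limma gave an adjusted p under 0.1 and a log2 difference over 1 in size, the thresholds used throughout. The other 20 HOX genes were detected on at most 4 arrays and were not tested. A gene could pass through the group in which it was highest, as HOXC10 did through BMP4 co-cultures alone, so counts and medians over the 19 genes describe these genes and not the whole clusters. Levels below are log2 normalised intensities of the brightest probe of a gene, and they are compared between groups only, since different probes of an array have no common scale.

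In co-cultures FGF2 lowered 5 of the 19 tested HOX genes and raised none, where 7.42% of all genes tested were called, 5.07% higher and 2.35% lower. The 5 were HOXA2, HOXB1, HOXB2, HOXD3 and HOXD4, all with paralogue numbers 1 to 4. The falls of HOXB1 and HOXD3 were known when the HOX genes were taken up, so these are given as a description and without a p-value. Among the 9 tested genes with numbers 1 to 4 the median difference was -1.59 on the log2 scale, against 0.21 for the 6 with numbers 5 to 8, 0.15 for the 4 with numbers 9 to 13 and -0.057 for all genes.

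HOXA2, which patterns the second branchial arch and is the only HOX gene expressed as far forward as the second rhombomere of the hindbrain, stood at 12.47 and 12.26 on the -GFs arrays. With FGF2 its level was 10.85, 10.78 and 10.70, so that the groups did not overlap and FGF2 lowered it by 3.02-fold (log2 difference -1.59, SE 0.19, adjusted p = 0.00794, limma). A second HOXA2 probe differed by -1.82 on the log2 scale. The FGF2 co-cultures thus lay at or just below the lowest PA6 array without growth factors, where HOXA2 ranged from 10.85 to 11.59.

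HOXB2, a hindbrain gene of the same paralogue number, stood at 12.997 and 12.74 without growth factors and at 11.38, 10.77 and 11.08 with FGF2. The log2 difference was -1.79 (SE 0.22, adjusted p = 0.00871, limma). In PA6 cells without growth factors its level was 10.74, 10.98 and 10.70. Both genes of paralogue number 2 were thus lower on each FGF2 array than on either -GFs array.

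HOXB1, a marker of the fourth rhombomere and an early target of retinoic acid, read 10.88 and 9.08 without growth factors. With FGF2 it read 8.64, 6.42 and 6.36, with HOXB1 undetected on 1 of the 3 arrays. The log2 difference was -2.84 (SE 0.80), and a second probe differed by -3.01. The spread was wide in both groups, and the nearest arrays of the groups, -GFs replicate 2 and FGF2 replicate 1, read 9.08 and 8.64.

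The cluster D genes HOXD3, which acts in the first vertebrae of the neck, and HOXD4, which acts in the posterior hindbrain and upper neck, fell to a like extent. HOXD3 stood at 9.72 and 9.27 without growth factors and at 6.57, 6.61 and 6.81 with FGF2, where it was detected on 2 of the 3 arrays (log2 difference -2.84, SE 0.43). HOXD4 stood at 9.61 and 9.83 and, with FGF2, at 6.66, 6.30 and 7.997, of which replicate 3 was the highest and replicate 2 was undetected (log2 difference -2.74, SE 0.64, adjusted p = 0.0541, limma). On either gene no FGF2 array reached a -GFs array. In the RefSeq annotation HOXD4 lies within the span of HOXD3, as HOXB4 lies within that of HOXB3 and HOXA4, HOXA5 and HOXA6 within that of HOXA3, and where the array's probes sit on these transcripts is not known here.

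**Figure D2:**
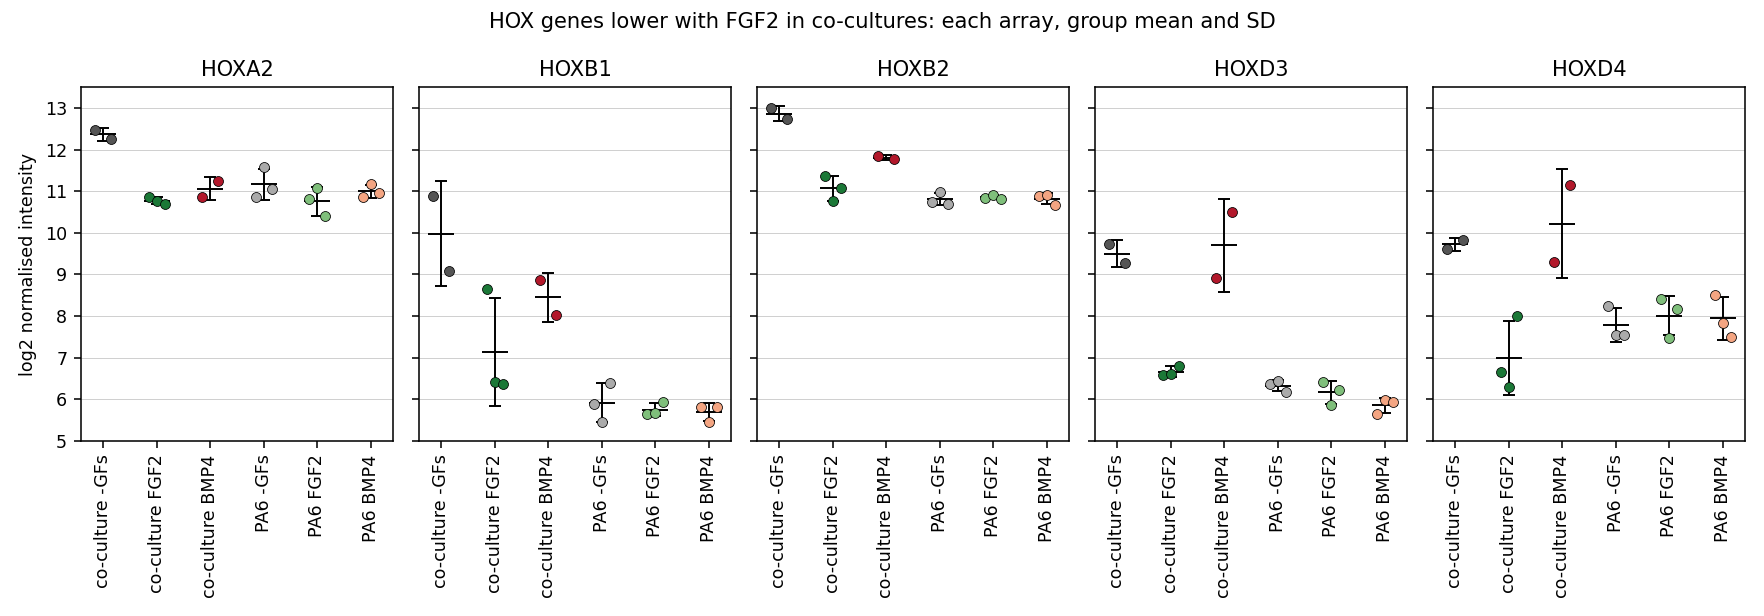
Each point is an array and shows the log2 normalised intensity of the gene's brightest probe; the bar and whiskers give the mean and SD of the group (2 or 3 arrays). In co-cultures all FGF2 points of the 5 genes lie below the -GFs points, whereas in PA6 cells the points of a gene overlap or lie close together in the 3 groups, where HOXB1 and HOXD3 were undetected.

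The other 14 tested HOX genes were not called with FGF2. Of the others with low paralogue numbers, HOXB4 stood at 11.43 and 12.23 without growth factors and at 10.29, 11.43 and 11.32 with FGF2 (log2 difference -0.82, adjusted p = 0.347, limma), and HOXA4 differed by 0.05. The 4 probes of HOXB3 disagreed, with differences of -0.44, -0.11, -1.13 and 0.02. HOXB7 of the middle group differed by -0.92 (adjusted p = 0.452, limma). HOXC9 was detected on all 3 FGF2 arrays, at 6.70, 6.66 and 6.54, and on neither -GFs array, which put it above -GFs co-cultures by at least 1.07-fold (adjusted p = 0.385, limma).

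Leaving out arrays in turn, HOXA2 and HOXB2 were called in each of the 7 fits. HOXD3 was not called without -GFs replicate 1 (-2.61 on the log2 scale). HOXD4 was not called without -GFs replicate 1 (-2.85), -GFs replicate 2 (-2.63), FGF2 replicate 1 (-2.57) or FGF2 replicate 2 (-2.40). HOXB1 was called only without FGF2 replicate 1. Its difference was -1.94 when -GFs replicate 1 was left out and -3.74 when -GFs replicate 2 was, -2.48 and -2.45 for FGF2 replicates 2 and 3, and -2.84 for BMP4 replicate 1 or 2.

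The bases before the starts of 3 of these 5 genes are shown because the genes fell together. They were taken from RefSeq promoter entries on build GRCm38.p6, whose table matched 22 HOX genes and holds no entry for HOXB2. The stretch of HOXA2 is chr6:52164832-52165081 on the minus strand, that of HOXB1 chr11:96365508-96365745 on the plus strand, which stops at the annotated start of the gene, and that of HOXD3 chr2:74711743-74711992 on the plus strand. Capitals mark, on either strand, TGATNNAT (the site of a PBX-HOX pair), TGACAG (the site of MEIS and PKNOX proteins), TTTATG (a site of CDX and posterior HOX proteins) and AGGTCA (the half-site of retinoic acid receptors).

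HOXA2: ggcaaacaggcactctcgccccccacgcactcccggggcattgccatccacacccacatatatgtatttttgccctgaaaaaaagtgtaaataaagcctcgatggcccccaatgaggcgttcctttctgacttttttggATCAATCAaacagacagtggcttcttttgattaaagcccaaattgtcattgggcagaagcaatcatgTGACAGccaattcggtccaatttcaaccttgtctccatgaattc
HOXB1: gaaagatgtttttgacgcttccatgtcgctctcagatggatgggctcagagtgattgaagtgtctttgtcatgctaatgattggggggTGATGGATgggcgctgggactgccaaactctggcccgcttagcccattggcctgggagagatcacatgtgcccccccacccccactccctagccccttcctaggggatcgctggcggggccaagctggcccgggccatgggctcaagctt
HOXD3: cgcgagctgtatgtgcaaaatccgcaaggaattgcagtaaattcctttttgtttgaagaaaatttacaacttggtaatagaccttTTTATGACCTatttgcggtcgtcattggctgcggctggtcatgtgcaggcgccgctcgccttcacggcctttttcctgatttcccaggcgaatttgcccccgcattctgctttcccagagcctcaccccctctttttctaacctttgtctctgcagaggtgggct

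HOXA2 and HOXB1 each held 1 PBX-HOX match, HOXA2 also 1 MEIS match, and HOXD3 a TTTATG that overlaps by 2 bases an AGGTCA read on the other strand. The 250 bases before HOXD4, which lie inside the annotated span of HOXD3 and are not printed, likewise held 1 TTTATG and 1 AGGTCA. Of all 32851 promoter entries, read over the same 250 bases on both strands, 7.68% held TGATNNAT, 15.9% TGACAG, 10.8% TTTATG and 14% AGGTCA. Of the 24 HOX entries 4, 2, 5 and 6 held them. The matches are letters in a window and say nothing of binding.

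BMP4 in co-cultures called 5 HOX genes as well, 3 higher and 2 lower, where 3.75% of all genes tested were called, 2.28% higher and 1.47% lower. Higher were HOXA5, HOXC6 and HOXC9, and lower were HOXA2 and HOXB2. Under median scaling the split was 7 higher and 0 lower, where 5.77% of all genes tested were called, 3.8% higher and 1.98% lower. HOXA7, HOXB5 and HOXD8 were then among those called higher, and HOXA2 and HOXB2 were no longer called. The median log2 difference was -0.08 over the 9 genes with numbers 1 to 4, 1.78 over the 6 with numbers 5 to 8 and 0.62 over the 4 with numbers 9 to 13, against -0.0015 for all genes.

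HOXC6, which acts in the thoracic region and in the mammary gland, stood at 6.89 and 6.56 without growth factors. With BMP4 it reached 10.95 and 12.33, a difference of 4.92 on the log2 scale (30.2-fold, SE 0.47, adjusted p = 0.00761, limma). The -GFs levels lay near the lowest level of a detected probe on those arrays, 6.65 and 6.42. This fold of HOXC6 was thus measured close to background. HOXC9, a thoracic gene of the same cluster, was undetected on both -GFs arrays (5.57 and 5.88) and read 9.45 and 11.63 with BMP4, at least 16-fold higher (adjusted p = 0.017, limma). Both genes were undetected on all 9 PA6 arrays, at 5.40 to 5.91 for HOXC6 and 5.47 to 5.87 for HOXC9. HOXC10, the remaining tested gene of cluster C, was detected on both BMP4 arrays (7.00 and 6.94) and on 1 of 2 -GFs arrays (6.16 and 6.87), and it was not called.

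HOXA5, which acts in the neck and in the lung, stood at 8.64 and 9.01 without growth factors and at 10.19 and 11.40 with BMP4 (log2 difference 1.97, SE 0.43, adjusted p = 0.0781, limma). In contrast to the cluster C genes it was far higher in PA6 cells, at 12.20 to 12.64 without growth factors. The summed level of the 10 stromal genes was 15.93 and 15.99 on the log2 scale in -GFs co-cultures and 15.94 and 16.28 in BMP4 co-cultures, the highest on BMP4 replicate 2, where HOXA5 was highest as well. No stromal gene was called in the comparison, and the part of the stroma in the HOXA5 result was not tested.

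HOXA2 and HOXB2, lower with FGF2, were also lower with BMP4, in comparisons that share the -GFs arrays. HOXA2 read 10.87 and 11.26 with BMP4 (log2 difference -1.30, SE 0.21, adjusted p = 0.0316, limma). HOXB2 read 11.85 and 11.77 (log2 difference -1.06, SE 0.24, adjusted p = 0.0858, limma). HOXB1 read 8.87 and 8.03, below both -GFs arrays, with a difference of -1.53 that was not called (adjusted p = 0.499, limma).

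HOXD3 and HOXD4 did not follow. HOXD3 read 8.91 and 10.49 with BMP4 against 9.72 and 9.27 without growth factors, and HOXD4 read 9.29 and 11.15 against 9.61 and 9.83. On either gene the groups overlapped, and the log2 differences of 0.20 and 0.50 were within the spread of the BMP4 arrays (SD 1.12 and 1.32, n = 2).

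All 6 tested genes with paralogue numbers 5 to 8 had positive differences with BMP4, and only HOXA5 and HOXC6 of them were called. HOXB7 turned to -0.26 without -GFs replicate 1 and to -0.50 without BMP4 replicate 2. HOXD8 stood at 7.26 and 7.92 without growth factors and at 8.56 and 9.78 with BMP4 (log2 difference 1.58, adjusted p = 0.16, limma), and HOXA7 at 7.25 and 7.56 against 8.16 and 9.76 (1.56, adjusted p = 0.293, limma). HOXB5 spanned 7.11 to 10.44 without growth factors, 7.26 to 10.42 with FGF2 and 9.75 to 11.78 with BMP4, so that its difference of 1.99 came with an SE of 1.35.

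**Figure D3:**
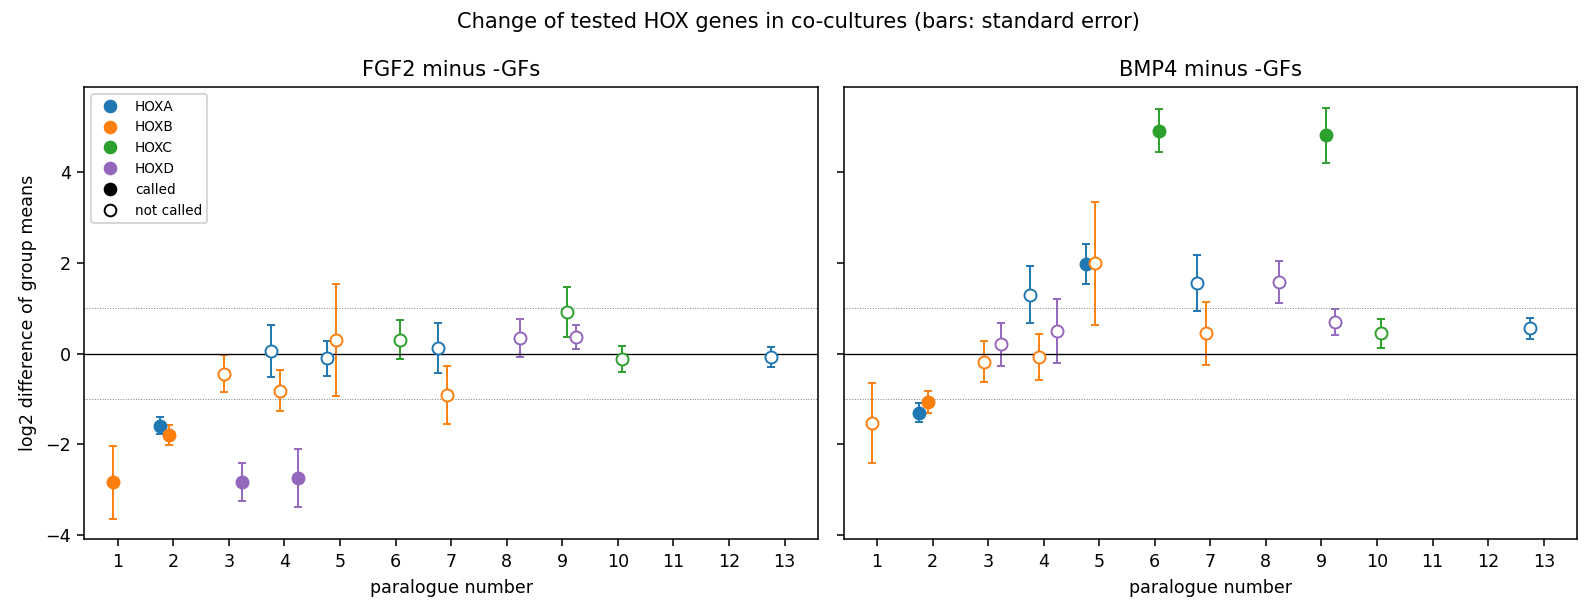
Each point is a tested HOX gene reported here, placed by paralogue number on the horizontal axis and by its log2 difference of group means on the vertical axis, with the standard error as bars; colours give the cluster, filled points were called and dotted lines mark a log2 difference of 1. With FGF2 the filled points lie below 0 at numbers 1 to 4, and with BMP4 they lie below 0 at number 2 and above 0 at numbers 5 to 9; the falls at number 2 with BMP4 were not called under median scaling.

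The 2 BMP4 arrays differed from each other on these genes. BMP4 replicate 2 was higher than replicate 1 for each of the 6 tested genes with numbers 5 to 8, by a median of 1.49 on the log2 scale, whereas the median over all genes was 0.023. The -GFs arrays differed in the same direction, with replicate 2 higher for 5 of these 6 genes by a median of 0.52 over the 6, and by 3.325 for HOXB5, against a median of 0.021 over all genes. Between the BMP4 arrays HOXC9 was 2.18 higher on replicate 2, HOXD3 1.58 and HOXD4 1.86, and HOXB1 was 0.84 lower. HOXB6, which was not tested, was detected on BMP4 replicate 2 at 8.89, against 6.37 on replicate 1, and HOXB9 likewise at 7.77 against 6.06. The summed level of 4 adipocyte genes differed between the same arrays, 11.53 on replicate 1 and 14.19 on replicate 2. Surface ectoderm genes went the other way, 15.21 and 14.46, as did pluripotency genes, 16.4 and 16.06. On the -GFs arrays the adipocyte level was 12 on replicate 1 and 10.78 on replicate 2. The part of these differences in the HOX values was not tested.

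**Figure D4:**
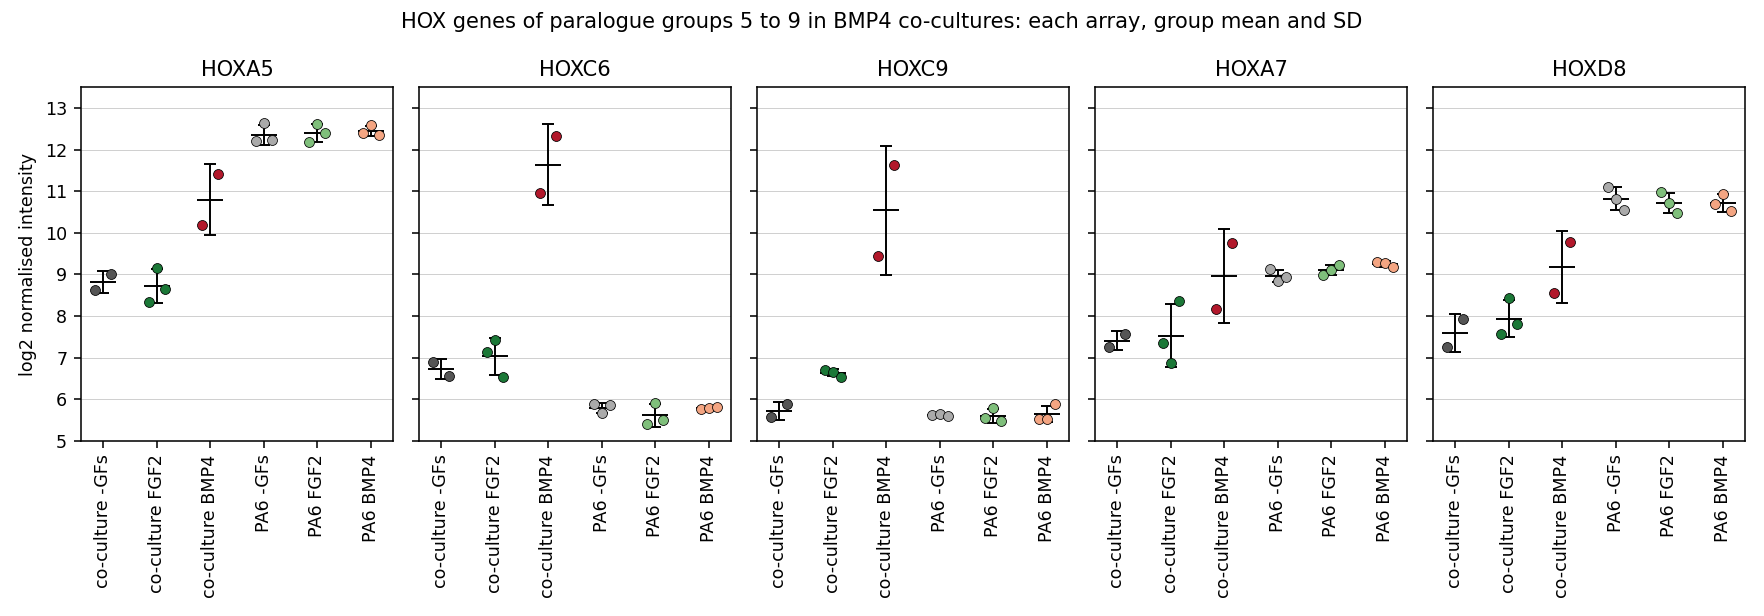
Each point is an array and shows the log2 normalised intensity of the gene's brightest probe; the bar and whiskers give the mean and SD of the group (2 or 3 arrays). The upper BMP4 co-culture point of every gene is replicate 2, HOXC6 and HOXC9 reach 12.33 and 11.63 there and stay at or below 5.91 in PA6 cells, and HOXA5, HOXA7 and HOXD8 lie higher in PA6 cells than in -GFs co-cultures.

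HOXC6 and HOXC9 were called with BMP4 in each of the 7 fits that left out 1 array. HOXA5 was not called without -GFs replicate 1 (1.79) or 2 (2.16), FGF2 replicate 3 (1.97) or BMP4 replicate 2 (1.36). HOXA2 was not called without -GFs replicate 1 (-1.20) or 2 (-1.41) or BMP4 replicate 1 (-1.11), and HOXB2 without -GFs replicate 1 (-0.93) or 2 (-1.19), FGF2 replicate 3 (-1.06), BMP4 replicate 1 (-1.10) or BMP4 replicate 2 (-1.02).

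Set directly against FGF2 in co-cultures, BMP4 gave higher levels of HOXA5, HOXC6, HOXC9, HOXD3 and HOXD4 and lower levels of none, where 1.44% of all genes tested were called, 0.755% higher and 0.688% lower. None of these HOX genes was called with the replicate number as a block, though the numbers were not taken as pairs. Under median scaling 12 HOX genes were called, all higher, where 3.33% of all genes tested were called, 2.12% higher and 1.21% lower. All 19 tested HOX genes had a positive difference, with a median of 1.31 on the log2 scale against 0.039 for all genes. HOXB3 turned to -0.05 without FGF2 replicate 2 and to -0.17 without BMP4 replicate 2. This comparison shares its arrays with both comparisons above and is no separate support for them.

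HOXC6 differed by 4.61 (SE 0.43, adjusted p = 0.0118, limma), HOXC9 by 3.90 (SE 0.55, adjusted p = 0.0455, limma) and HOXA5 by 2.08 (SE 0.40, adjusted p = 0.0915, limma). HOXD3 differed by 3.04 (SE 0.43) and HOXD4 by 3.24 (SE 0.64, adjusted p = 0.0967, limma), and their FGF2 and BMP4 arrays did not overlap. HOXA2 and HOXB2, which had been called lower with both factors, differed by 0.29 and 0.74 and were not called.

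With 1 array left out HOXC6 was called in all 7 fits. HOXC9 was not called without FGF2 replicate 1 (3.94), 2 (3.92) or 3 (3.86), and HOXD3 without the same arrays (2.99, 3.01 and 3.11). HOXA5 was called only without BMP4 replicate 1, with differences of 2.08 without -GFs replicate 1 or 2, 1.90, 2.30 and 2.04 without FGF2 replicates 1, 2 and 3, and 1.47 without BMP4 replicate 2. HOXD4 was likewise called only without BMP4 replicate 1, with 3.24 without either -GFs array, 3.07, 2.90 and 3.74 without FGF2 replicates 1, 2 and 3, and 2.31 without BMP4 replicate 2.

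In PA6 cells alone neither factor called a HOX gene in limma, where FGF2 called 0.027% of all genes tested and BMP4 0%. At an unadjusted p under 0.05 there was 1 HOX gene for each factor, against 10.4% and 9% of all genes. They were HOXA4 with FGF2, at 8.02, 8.36 and 7.95 against 8.27, 8.73 and 9.21 without growth factors (log2 difference -0.63, adjusted p = 0.425), and HOXD3 with BMP4, which was undetected in both groups.

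Over the 11 genes named above as detected throughout PA6 cells, the differences lay between -0.63 and 0.41 with FGF2 and between -0.39 and 0.62 with BMP4. HOXB1, HOXB7, HOXC6, HOXC9 and HOXD3, which were undetected on all 9 PA6 arrays, could not show a fall there. HOXA2 differed by no more than the spread of its PA6 arrays, at 10.39 to 11.07 with FGF2 and 10.85 to 11.59 without growth factors. HOXB2 lay between 10.67 and 10.98 on all 9 PA6 arrays. HOXA5 lay between 12.18 and 12.64 on them.

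The factor effects were therefore set against each other between co-cultures and PA6 cells in a fit of all 16 arrays. FGF2 effects were more negative in co-cultures for HOXA2, HOXB1, HOXB2, HOXD3 and HOXD4, 5 of 19 genes where 7.9% of all genes tested were called, 4.92% more positive and 2.98% more negative. Of these, HOXB1 and HOXD3 could not fall in PA6 cells, where they were undetected. Their calls restate co-culture falls that were known beforehand. BMP4 effects were more positive for HOXA5, HOXC6, HOXC9 and HOXD8 and more negative for HOXA2 and HOXB2, where 4.23% were called, 2.61% more positive and 1.63% more negative. Under median scaling HOXA2 was not called for either factor (-1.23 with FGF2, adjusted p = 0.113, and -0.87 with BMP4, adjusted p = 0.4, limma), nor was HOXB2 with BMP4 (-0.83, adjusted p = 0.417, limma). These differences use the same co-culture arrays as the comparisons above.

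Without growth factors, co-cultures had higher levels of 7 HOX genes and lower levels of 5 than PA6 cells, where 44.1% of all genes tested were called, 22.3% higher and 21.8% lower. In cluster B, HOXB1, HOXB5 and HOXB7 were called higher, but they passed the detection filter through co-cultures alone, and a gene that passes in this way has to differ. Of the cluster B genes detected throughout both kinds of culture, HOXB2 was called higher, and HOXB3 and HOXB4 differed by 0.95 and 0.46 and were not called. In cluster A, HOXA2 was called higher and HOXA4, HOXA5 and HOXA7 lower (median over 6 genes -0.94). In cluster D, HOXD4 was called higher and HOXD8 and HOXD9 lower, and HOXD3, which likewise passed through co-cultures alone, was called higher.

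HOXB7, which acts in the trunk, read 10.22 and 11.63 in -GFs co-cultures and was undetected on all 9 PA6 arrays, at least 18.9-fold higher in the co-cultures. HOXB1 was at least 9.79-fold higher and HOXD3 at least 7-fold higher, both undetected in PA6 cells. Since these genes passed the filter through co-cultures alone, their folds are a description and no p-value is given. HOXB2 was 4.17-fold higher (log2 difference 2.06, SE 0.18, adjusted p = 3.2e-07, limma). HOXD4 differed by 1.94 and HOXA2 by 1.20, and HOXB5 by 2.42 with arrays that overlapped.

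In the other direction HOXA5 was 11.6-fold lower in -GFs co-cultures (log2 difference -3.53, SE 0.32, adjusted p = 4.77e-07, limma). HOXD8, which acts in the trunk and limb, read 7.26 and 7.92 in co-cultures and 11.11, 10.82 and 10.54 in PA6 cells (log2 difference -3.23, SE 0.35, adjusted p = 2.53e-06, limma). HOXD9 was undetected on both -GFs co-culture arrays and read 9.52, 8.84 and 10.10 in PA6 cells, at least 7.74-fold lower in the co-cultures (adjusted p = 1.11e-06, limma). HOXA4, detected on 1 of the 2 co-culture arrays, differed by -1.68, and HOXA7 by -1.57. The summed level of the stromal genes was 15.93 to 15.99 in these co-cultures and 17.58 to 17.76 in PA6 cells, and its part in these HOX differences was not tested.

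Of the 12 calls, 10 held in each of the 16 fits that left out 1 array. HOXA4 was not called without -GFs co-culture replicate 1 (-1.05), and HOXB5 without -GFs co-culture replicate 2 (0.76) or PA6 -GFs replicate 3 (2.19). Under median scaling the difference of HOXA2 was 0.94 and was not called.

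**Figure D5:**
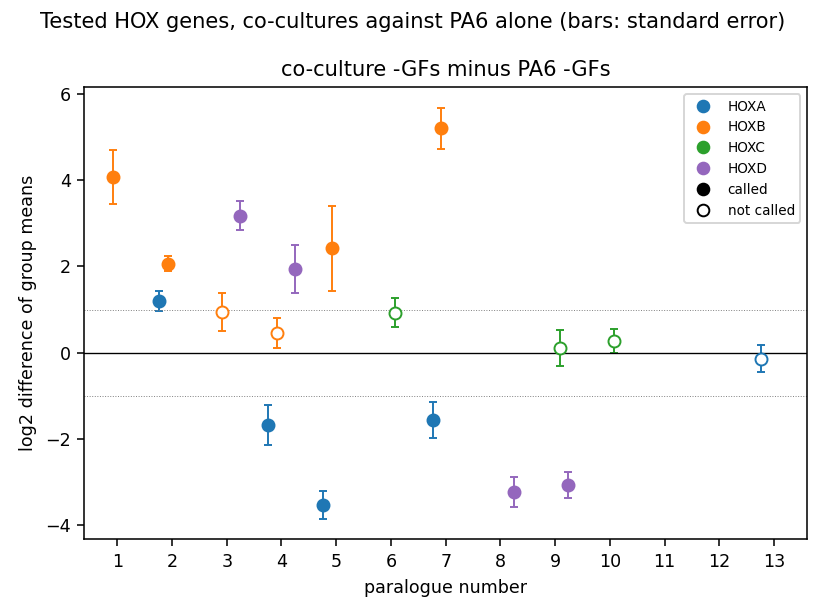
Each point is a tested HOX gene reported here, placed by paralogue number on the horizontal axis and by the log2 difference between co-cultures and PA6 cells without growth factors on the vertical axis, with the standard error as bars; colours give the cluster and filled points were called. HOXA5 and HOXD8 lie below -3; the points of HOXB1, HOXB7 and HOXD3, undetected in PA6 cells, and of HOXD9, undetected in these co-cultures, are measured against background, and the text gives their bounds.

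Partners and regulators of the HOX genes were followed as lists. Of 9 cofactors, all tested, FGF2 in co-cultures called 1 lower and none higher, with 8 of 9 negative and a median of -0.61. This was MEIS3, at 8.94 and 8.76 without growth factors and 7.40, 7.38 and 8.06 with FGF2 (log2 difference -1.24, adjusted p = 0.0327, limma). MEIS1 differed by -0.79 (adjusted p = 0.0439, limma), short of the threshold of size. BMP4 called no cofactor in co-cultures.

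Of 18 upstream regulators 12 were tested, and FGF2 in co-cultures called 2 lower and none higher. They were CRABP1 (log2 difference -1.71, adjusted p = 0.0599, limma) and CRABP2 (-2.15, adjusted p = 0.0269, limma), which bind retinoic acid inside the cell. CRABP2 read 13.61 and 13.47 without growth factors and 11.33, 10.74 and 12.11 with FGF2, with no overlap. BMP4 called CYP26B1 lower, an enzyme that breaks down retinoic acid (log2 difference -1.79, adjusted p = 0.0196, limma). RARB, a receptor that retinoic acid itself induces, differed by -0.33 with FGF2 and 1.05 with BMP4 and was not called. CDX1, CDX2 and CDX4 were among those that did not pass the detection filter.

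Of the 6 homeobox genes next to or related to the clusters only EVX1 and GSX1 were tested. GSX1, a ParaHox gene of neural progenitors, was lower with FGF2 (log2 difference -1.88, adjusted p = 0.00859, limma) and with BMP4 (-2.79, adjusted p = 0.00731, limma), in comparisons that share the -GFs arrays. EVX1, which neighbours HOXA13, was not called.

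Of 26 Polycomb and trithorax genes 23 were tested. FGF2 in co-cultures called CBX2 (log2 difference -1.33) and RING1 (-1.37) lower and CBX7 (1.73) higher, all subunits of Polycomb repressive complexes, and the median over the list was -0.16. BMP4 called none of them. Of 14 forebrain and midbrain factors 6 were tested, and neither FGF2 nor BMP4 called any in co-cultures (medians 0.79 with FGF2 and 0.14 with BMP4). Their summed level was 12.84 to 13.56 in PA6 cells, where HOX genes were detected as well, and 11.51 to 12.94 in co-cultures. The part of the stroma in their co-culture level was not tested.

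Markers of cell types moved in the same arrays. With FGF2 in co-cultures 7 of 8 pluripotency genes were called higher, with a summed level of 16.79 to 16.97 against 15.26 and 15.45 without growth factors, and 2 of 7 neural genes were called lower, with a summed level of 13.77 to 13.97 against 14.10 to 14.82. With BMP4 4 of 7 neural genes were called lower (13.11 on both arrays) and 5 of 7 surface ectoderm genes higher (14.46 and 15.21, against 11.70 and 11.75), and 3 of 8 pluripotency genes were called higher. FGF2 called 1 of the 7 surface ectoderm genes, TFAP2C, higher (2.25). TWIST1 was the only 1 of 5 tested mesoderm genes called with BMP4, and no mesoderm gene was called with FGF2. Of 7 endothelial genes listed only 3 passed the detection filter, and in either comparison 2 of these 3 were called higher. No stromal or adipocyte gene was called with either factor. The part of these shifts between cell types in the HOX values was not tested.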

How the data were processed

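Per the labels, total RNA of 16 cultures was read on Illumina BeadChip arrays, 1 per culture. The authors exported average bead intensity and a detection p-value per probe from GenomeStudio 2011.01. The deposited intensity was not normalised between arrays, and the cubic spline values of the study were not used here. Replicates are separate arrays, and p-values measure the spread between them.

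Intensities were background corrected with normexp from the detection p-values, quantile normalised and log2 transformed with an offset of 16 (neqc of limma 3.58.1, R 4.3.3). A probe was kept where all arrays of some group had a detection p under 0.05 (20880 of 45281), and the brightest probe stood for a gene, which left 14829. Models were fitted with lmFit and eBayes to the 7 co-culture arrays, the 9 PA6 arrays or all 16, with no block and Benjamini-Hochberg adjustment over all genes. The scripts were tested on simulated data. The number of arrays limits the precision.

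Where a gene was undetected throughout a group, its fold is a bound against the lowest level of a detected probe on each array. Named are the HOX genes detected on every array of a group or called, and from the other lists genes called in a co-culture comparison, at most 6 per list, with MEIS1, RARB and EVX1 added after their values were seen. The members, the lists and the classes by paralogue number were chosen with earlier results of these data known.

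The lists held 9 HOX cofactors of the PBX, MEIS and PKNOX families, 18 upstream regulators (CDX factors and genes of retinoic acid signalling among them), 6 related homeobox genes, 26 Polycomb and trithorax genes, 14 forebrain and midbrain factors, and markers of pluripotent, neural, stromal, adipocyte, endothelial, surface ectoderm and mesoderm cells. Same-numbered arrays deviated from their group means with correlations of -0.199 to 0.283 in co-cultures (6 pairs) and 0.07 to 0.199 in PA6 cells (9 pairs), so the numbers were not taken as pairs. Some genes of the clusters and lists enter the counts but are not reported here by name or value.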

Additional observations from a re-analysis of the deposited data

Results flagged for a closer look

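For 11 effects the difference between co-cultures and PA6 cells was itself called in the fit of all 16 arrays (limma). Differences are on the log2 scale, as the effect in co-cultures minus the effect in PA6 cells, and they rest on the co-culture arrays already described.

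With FGF2 the differences were -1.18 for HOXA2 (adjusted p = 0.0393), -2.68 for HOXB1, -1.84 for HOXB2 (adjusted p = 0.000623), -2.67 for HOXD3 and -2.97 for HOXD4 (adjusted p = 0.0309). HOXB1 and HOXD3 were undetected on all 9 PA6 arrays and could not fall there, so their differences restate the falls in co-cultures. HOXB2, HOXD3 and HOXD4 were called without any 1 of the arrays, and HOXA2 was not called without -GFs co-culture replicate 1 (-1.08). HOXB1 was called in 8 of 16 such fits, those without -GFs co-culture replicate 2, FGF2 co-culture replicate 1, either BMP4 co-culture array, PA6 -GFs replicate 3 or a PA6 BMP4 array, and over all 16 the difference lay between -3.58 and -1.78.

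With BMP4 the differences were 4.92 for HOXC6 (adjusted p = 0.000117), 4.79 for HOXC9 (adjusted p = 0.000594), 1.88 for HOXA5 (adjusted p = 0.0378), 1.69 for HOXD8 (adjusted p = 0.0945), -1.14 for HOXA2 (adjusted p = 0.0929) and -1.07 for HOXB2 (adjusted p = 0.0356). HOXC6 and HOXC9 were undetected on all 9 PA6 arrays and HOXC9 also on both -GFs co-culture arrays, so that its value is measured against background, and its rise in co-cultures is bounded only as at least 16-fold. Both were called without any 1 of the arrays. Under median scaling HOXA2 was called for neither factor (-1.23 and -0.87) and HOXB2 not for BMP4 (-0.83). HOXA5 and HOXB2 were not called without -GFs co-culture replicate 1 (1.70 and -0.94) or BMP4 co-culture replicate 2 (1.27 and -1.03). HOXD8 was called in 4 of 16 fits, those without -GFs co-culture replicate 2, FGF2 co-culture replicate 1 or 2, or BMP4 co-culture replicate 1 (range 1.08 to 2.30). HOXA2 was called in 4 of 16, those without BMP4 co-culture replicate 2, PA6 -GFs replicate 2, or PA6 FGF2 replicate 2 or 3 (range -1.35 to -0.95).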

How the results depend on the processing

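No single call of a HOX gene changed its direction in the alternatives, which gave 754 values for 38 calls, and 636 of them were called again. With FGF2 in co-cultures the count of 5 was 3 without the filter on dim probes and at adjusted p under 0.05, and 2 to 4 with 1 array left out. With BMP4 against -GFs the count of 5 was 3 under the same 2 settings and 2 to 5 with 1 array left out. With BMP4 against FGF2 the count of 5 was 12 under median scaling, 1 without the filter, 3 at adjusted p under 0.05, 8 in a fit of all 16 arrays and 1 to 5 with 1 array left out. The replicate number as a block left 0 of these 5. The blocked differences were 4.37 for HOXC6, 3.86 for HOXC9, 2.045 for HOXA5, 3.11 for HOXD3 and 3.74 for HOXD4. The same block gave 5 for FGF2 and 4 (all higher) for BMP4 against -GFs. The run of columns in the deposited table as a block gave 7, 5 and 5 for these comparisons in that order. With it HOXA5 (1.84) and HOXB2 (-0.83) were not called for BMP4 against -GFs, and HOXA7 (1.93) was. The labels describe 1 well of each kind per biological replicate, but the numbers do not show which wells belong together, since 2 groups have 2 arrays. Median scaling moved the median difference of all genes from -0.057 to -0.21 with FGF2 and from 0.039 to 0.29 for BMP4 against FGF2. An offset of 50 and the mean over the probes of a gene moved no count of calls by over 1.5 times. The counts with 1 array left out were 0 in PA6 cells, 11 to 13 for co-cultures against PA6 cells, 3 to 5 for the FGF2 effects between the kinds of culture and 3 to 7 for BMP4. With detection p under 0.01 the HOX genes detected on every array were 10, 5 and 17 in -GFs, FGF2 and BMP4 co-cultures and 10, 8 and 8 in the PA6 groups in that order. The cause of these shifts was not tested. With 2 or 3 arrays a group, a HOX gene that was not called may still have changed, and the 20 genes that were not tested have no measured change.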
